A study of Homo sapiens with 9 samples.

Results

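Nucleoporin transcripts edited by 2 RNA-binding fusion proteins were examined in 293T cells, an established human line derived from embryonic kidney that expresses SV40 large T antigen. The set was 10 genes, NUP205, NUP188, NUP155, NUP107, NUP133, NUP85, NUP43, NUP98, NUP153 and NUP210, taken by gene symbol from the deposited lists of edited transcripts. All 10 were among the 1513 genes on either list, 6 of them among the 565 genes of the GPATCH8-ADAR list and 5 among the 1110 genes of the ADAR-SUGP1 list. The genes were chosen because they were on a list, with their site counts known. Their presence and their site counts are therefore given as a description, with no test.

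GPATCH8 and SUGP1 carry a G-patch domain and act with the spliceosome, and each was joined to the catalytic part of ADAR, a Drosophila enzyme that deaminates adenosines, in a hyperactive form. The method, TRIBE-seq, reads where the attached enzyme has turned adenosines of nearby RNA into inosines, which sequencing reports as guanosines. It asks which transcripts each protein contacts. There were 2 libraries of GPATCH8-ADAR and 2 of its non-targeting control fusion in sequencing run 1, and 2 of ADAR-SUGP1, 2 of its control and 1 of untransfected cells in run 2. The control fusions joined the same ADAR domain to MCP, a protein that serves as a non-targeting partner. All libraries carry the tag SF3B1WT in their labels, and the fusions were expressed from transfected plasmids for 24 h before GFP-positive cells were sorted. The labels write the second fusion both as ADAR-SUGP1 and as SUGP1-ADAR, and the name in the header of its list is used here.

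The nuclear pore is the channel through which RNA and protein pass between nucleus and cytoplasm. Its scaffold consists of an inner ring (NUP205, NUP188, NUP155) and outer rings built from the Y complex (NUP107, NUP133, NUP85, NUP43 and NUP96). NUP96 and NUP98 are made from 1 gene, NUP98, by cleavage of a precursor. NUP98 and NUP153 carry phenylalanine-glycine (FG) repeats that contact transport receptors, NUP153 sits in the basket on the nuclear side, and NUP210 anchors the pore in the membrane.

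The values are numbers of editing sites (no read counts are given) for each transcript and region. Endogenous editing and that of the control fusions was subtracted before each list joined its replicates, so 1 count per transcript and fusion exists, with no replicate spread, no control value and no editing level. The GPATCH8-ADAR list held 797 sites and the ADAR-SUGP1 list 1358, and the read depth behind a site is unknown. A gene with no entry may have no contact, too little RNA or too few reads. Its sites may also have been subtracted with the control or endogenous editing, or not found in both replicates. These cannot be told apart. Neither list gives RNA levels, so the identity of the cells could not be checked against marker genes. Fusion and sequencing run cannot be told apart either.

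Every site in these nucleoporin transcripts lay in an intron. GPATCH8-ADAR gave 17 sites in 6 genes and ADAR-SUGP1 gave 5 sites in 5 genes. NUP205 alone carried 8 of the GPATCH8-ADAR sites, and NUP153 a further 4. With ADAR-SUGP1 each of the 5 genes carried 1 site. NUP85 was the member on both lists.

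In the inner ring the 3 genes were divided between the lists. NUP205, a large scaffold subunit, had 8 intronic sites with GPATCH8-ADAR on transcript ENST00000285968.6 and no entry with ADAR-SUGP1. This was the highest count of any of the 565 GPATCH8-ADAR genes, the next being 7. NUP188, the structural relative of NUP205, had 1 intronic site with ADAR-SUGP1 on ENST00000372577.2 and no entry with GPATCH8-ADAR. NUP155, a β-propeller scaffold subunit that links the inner ring to the membrane, likewise had 1 intronic site with ADAR-SUGP1, on ENST00000231498.3, and none listed with GPATCH8-ADAR. NUP205 and its relative NUP188 stood on different lists, and NUP205 held all 8 inner ring sites of GPATCH8-ADAR. Of the 1513 genes on either list, 10.7% were on both, so nothing is read from this division.

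Y complex transcripts carried 1 or 2 sites where listed, beside a median of 1 over all listed genes of either fusion. NUP133, a subunit of the stem of the Y, had 2 intronic sites with GPATCH8-ADAR on ENST00000261396.3. NUP107, its partner in the stem, had 1 on ENST00000229179.4 with the same fusion. Neither stem gene was on the ADAR-SUGP1 list. NUP43, a small β-propeller subunit of a short arm, was listed with ADAR-SUGP1 alone, with 1 intronic site on ENST00000340413.2. NUP85, the arm subunit next to it, had 1 intronic site with each fusion, and the same transcript, ENST00000583948.1, was listed for both. No positions are given, so whether the NUP85 sites were the same adenosine cannot be told.

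Both FG-repeat genes of the set were on the GPATCH8-ADAR list alone. RANBP2, an FG protein gene outside the set, was on the ADAR-SUGP1 list alone. Since 10.7% of all genes on either list were on both, nothing is read from these placements. NUP153 had 4 intronic sites on ENST00000262077.2, the second highest count of the set, and NUP98 had 1 on ENST00000324932.7. NUP210, the membrane glycoprotein of the pore, was on the ADAR-SUGP1 list alone, with 1 intronic site on ENST00000254508.5. The plot of sites per nucleoporin shows these counts side by side.

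**Figure D1:**
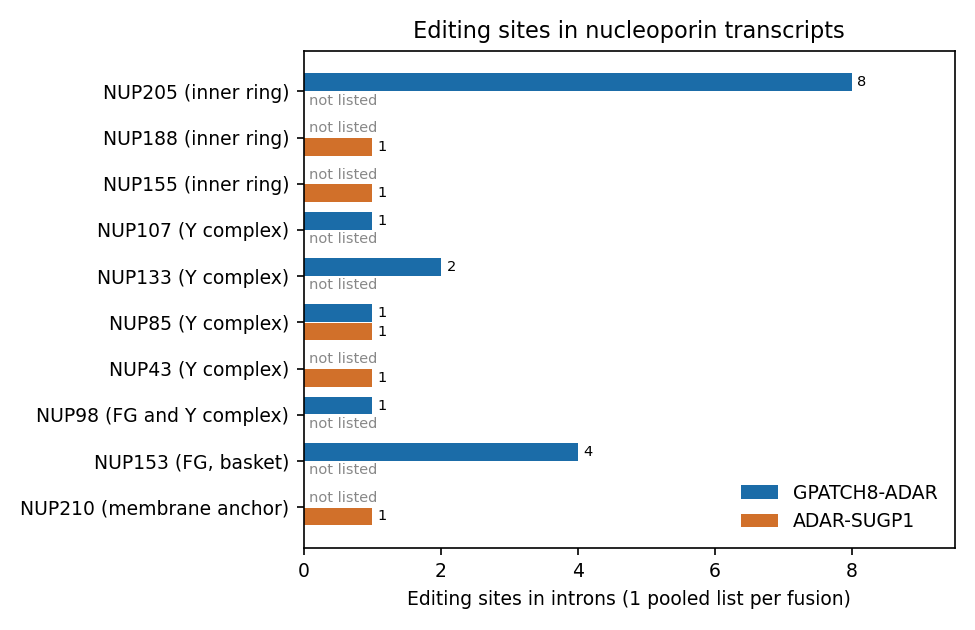
Editing sites per nucleoporin gene (x axis, number of intronic sites) for GPATCH8-ADAR (blue) and ADAR-SUGP1 (orange), with each gene's place in the pore in brackets; each bar is 1 deposited count that joins both replicates, so there are no error bars. NUP205 reaches 8 and NUP153 4 with GPATCH8-ADAR, every ADAR-SUGP1 bar is 1, and only NUP85 has both bars.

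Counts per gene were set beside those of all listed genes. The members were chosen with their counts known, so these comparisons are a description only. At least 2 sites were present in 3 of the 6 GPATCH8-ADAR members (NUP205, NUP153 and NUP133), where 28.1% of all 565 genes had as many. At least 4 were present in 2 of the 6, NUP205 and NUP153, against 5.31% of all genes (30 of 565). The remaining members, NUP107, NUP85 and NUP98, had 1 site, as did 374 genes of that list. The median over the 6 members was 1.5 sites and the mean 2.83, beside a median of 1 and a mean of 1.41 over all 565 genes. Without NUP205 the remaining 5 genes had 9 sites, a median of 1 and a mean of 1.80. With ADAR-SUGP1, 0 of the 5 members had 2 or more sites, where 19.3% of all 1110 genes did, and 827 of those genes had 1 site like NUP188, NUP155, NUP85, NUP43 and NUP210. The mean over these 5 members was 1.00 and over all listed genes 1.22, with a median of 1 in both. All listed genes include 32 (GPATCH8-ADAR) and 69 (ADAR-SUGP1) with 0 sites in the transcript body. Every listed member had at least 1.

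**Figure D2:**
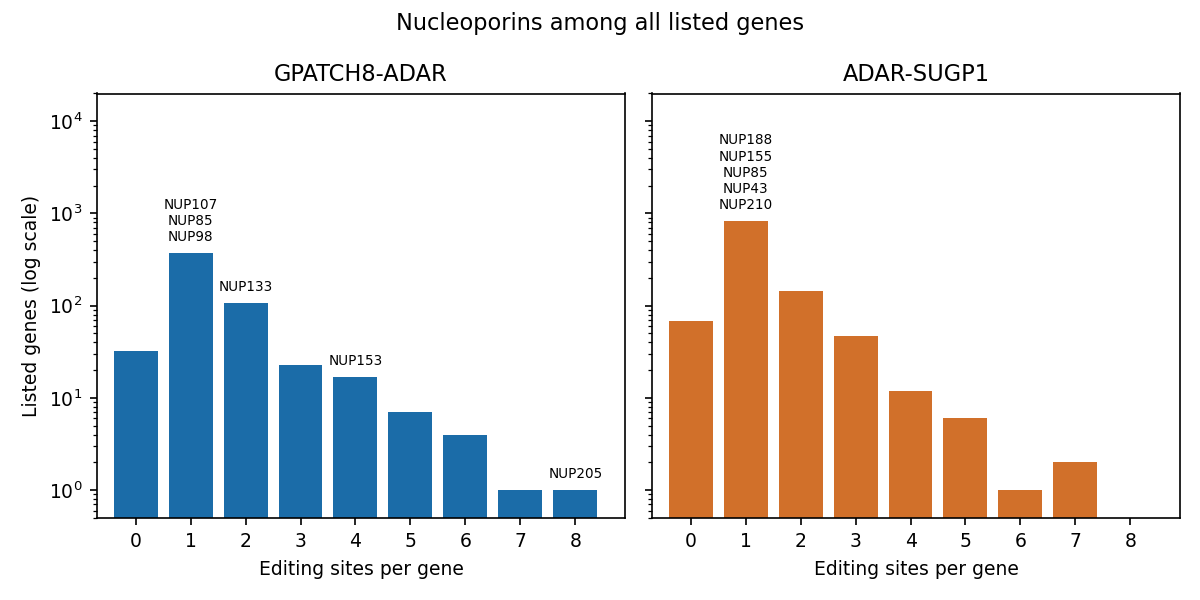
Number of listed genes (y axis, log scale) by editing sites in the transcript body (x axis) for GPATCH8-ADAR (left, 565 genes) and ADAR-SUGP1 (right, 1110 genes), with the nucleoporins named above the bar that holds them. NUP205 is alone at 8 sites and NUP153 is 1 of 17 genes at 4 sites, while the 5 ADAR-SUGP1 nucleoporins are in the bar of 1 site.

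The members made up 1.06% of the genes and 2.13% of the sites of the GPATCH8-ADAR list. Of these 17 sites, 47.1% came from NUP205, and NUP205 and NUP153 together gave 12 sites (70.6%). With ADAR-SUGP1 the members made up 0.450% of the genes and 0.368% of the sites.

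None of the members' sites lay in coding sequence, a 5′ UTR or a 3′ UTR. For GPATCH8-ADAR the intronic share was 17 of 17 sites (95% exact binomial interval 80.5 to 100%), and for ADAR-SUGP1 5 of 5 (47.8 to 100%). Over all listed genes it was 79.0% (630 of 797) and 69.2% (940 of 1358). These intervals cover counting error only, and the 8 sites of NUP205 and the 4 of NUP153 are not independent of each other. The members were chosen with their counts known, so the intervals are no test against all listed genes. Nothing is read from the difference in share. Taken by gene, all 6 and all 5 members had intronic sites alone, where among genes with a site in the transcript body this held for 76.5% (408 of 533, GPATCH8-ADAR) and 65.3% (680 of 1041, ADAR-SUGP1). Without NUP205 the intronic share of the GPATCH8-ADAR members was 9 of 9 sites (66.4 to 100%). Among the 30 GPATCH8-ADAR genes with at least 4 sites, 21 (70.0%) had intronic sites alone, NUP205 and NUP153 among them.

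The promoter and stop-codon columns, which stand apart from the transcript-body count, were 0 for every member. On the GPATCH8-ADAR list 1.59% of all genes had a promoter site and 3.54% a stop-codon site, and on the ADAR-SUGP1 list 1.17% and 12.9%.

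Each member was listed through 1 transcript per fusion, annotated as protein-coding. A single listed transcript was found for 92.2% of all genes on the first list and 81.8% on the second. Of the 10 members, 5 were on the GPATCH8-ADAR list alone, 4 on the ADAR-SUGP1 list alone and NUP85 on both. Over the 1513 genes on either list these shares were 26.6%, 62.7% and 10.7%, and since being listed chose the members, nothing is read from the comparison. Like NUP85, 149 of the 162 genes on both lists (92.0%) had the same transcript in each, 121 (74.7%) had an intronic site in each, and 49 (30.2%) had exactly 1 site, intronic, with each fusion.

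The genes most like NUP205 in their counts were found by the summed absolute difference over the 5′ UTR, coding, 3′ UTR and intron counts of both fusions, over 8 values per gene. HELLS, a chromatin remodelling helicase, was nearest, with a summed difference of 2 and 6 intronic sites with GPATCH8-ADAR alone. CCDC84, now named CENATAC and known from the minor spliceosome, had 6 intronic sites on the GPATCH8-ADAR list and 1 on the other. The transcript CTD-2116N17.1, ENSA, an inhibitor of a mitotic phosphatase, and POLG2, a mitochondrial DNA polymerase subunit, had 5 intronic sites each with GPATCH8-ADAR alone. These 4 genes were at a summed difference of 3, as was RP4-785G19.5, which came after them in alphabetical order.

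A fixed list of 34 nuclear pore genes held 7 genes of the GPATCH8-ADAR list and 6 of the ADAR-SUGP1 list, and 22 of the 34 were on neither. By name, 2.42% and 4.83% of the 20052 protein-coding genes of RefSeq were on these lists, so most genes of any such list would be absent, and since 10 of the 34 were chosen as listed genes, nothing is read from these counts. Outside the 10 members, AAAS, a β-propeller protein of the cytoplasmic face, had 1 intronic site with GPATCH8-ADAR. RANBP2, the large FG protein of the cytoplasmic filaments, had 1 intronic site with ADAR-SUGP1. No gene of the central channel (NUP54, NUP58, NUP62, NUP62CL) was listed. Of the basket genes NUP153 was listed while TPR and NUP50 were not, and of the inner ring NUP35 and NUP93 were on neither list. With AAAS and RANBP2 added, the pore genes had 18 and 6 sites, all intronic, with a median of 1 site per listed gene for either fusion.

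Karyopherins are the receptors that carry cargo through the pore. Of 26 karyopherin genes, 4 were on the GPATCH8-ADAR list and 3 on the ADAR-SUGP1 list. By name, these lists held 2.42% and 4.83% of RefSeq protein-coding genes. The karyopherin genes were chosen with earlier results of these data known, so nothing is read from the counts. With GPATCH8-ADAR, TNPO1, the import receptor of several RNA-binding proteins, had 3 intronic sites, CSE1L, which returns importin α to the cytoplasm, had 2, and IPO7 had 1. XPO5, the export receptor of microRNA precursors, had 1 intronic site with each fusion on the same transcript, ENST00000265351.7. The general exporter XPO1 and the exporter XPO6 had 1 intronic site each with ADAR-SUGP1 alone. All 7 and all 3 karyopherin sites were intronic, where 79.0% and 69.2% of the sites of all listed genes were.

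Of the 7 Ran cycle genes, which set the direction of transport, RCC1, the nucleotide exchange factor of Ran, had 3 intronic sites with GPATCH8-ADAR. With ADAR-SUGP1, NUTF2, the import carrier of Ran, had 1 intronic site, and RANGAP1, the GTPase-activating protein at the pore, had 1 in its 5′ UTR. Of 18 mRNA export factors, THOC5, a subunit of the THO complex, had 1 site in its 3′ UTR with GPATCH8-ADAR. The helicases DDX39A and DDX39B and the scaffold MCM3AP had 1 intronic site each with ADAR-SUGP1. NUTF2, DDX39A and DDX39B each had a further transcript with 1 stop-codon site. Of all ADAR-SUGP1 genes, 12.9% had a stop-codon site. DDX39A and DDX39B are close relatives, and whether reads were split between them was not tested. The karyopherin, Ran and export lists together held 51 genes. Of these, 6 were listed with GPATCH8-ADAR (11 sites, 10 intronic, median 1.5) and 8 with ADAR-SUGP1 (8 sites, 7 intronic, median 1). By name, 2.42% and 4.83% of RefSeq protein-coding genes were listed with these fusions. Over all listed genes 79.0% and 69.2% of sites were intronic. The 51 genes were chosen with earlier results of these data known, so nothing is read from their counts. None of the 51 reached the 4 sites of NUP153, and 5.31% of all GPATCH8-ADAR genes (30 of 565) had at least 4. NUP153 was chosen with its count known, so nothing is read from this contrast.

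**Figure D3:**
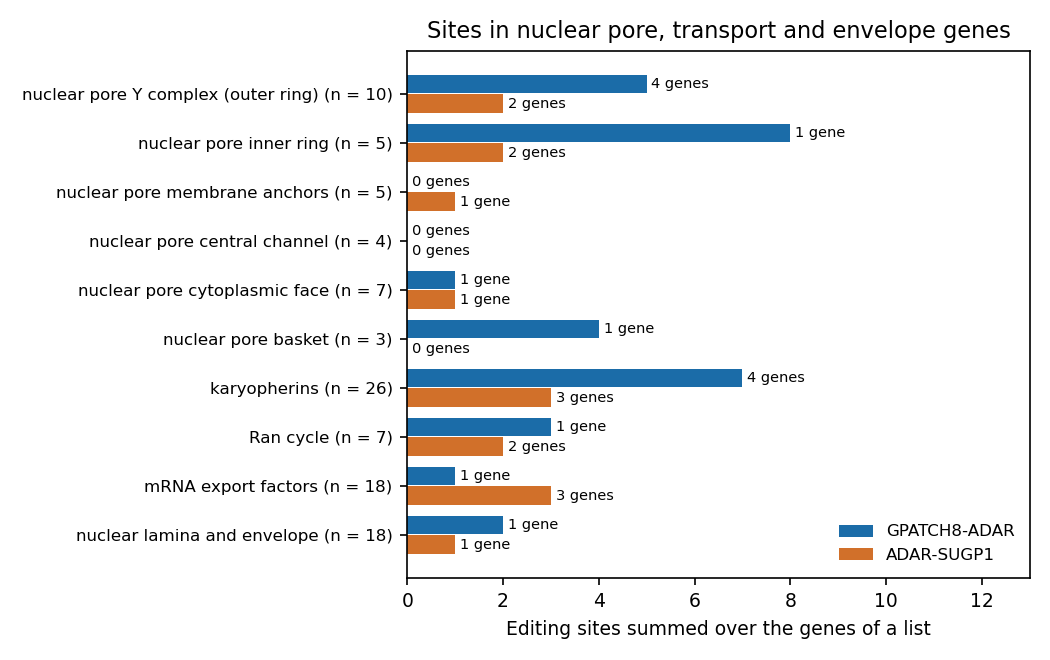
Editing sites summed over the genes of each fixed list (x axis), with the number of listed genes beside each bar and the size of the list in brackets; blue is GPATCH8-ADAR, orange ADAR-SUGP1, and each bar is a sum of deposited counts without error bars. The inner ring bar of 8 sites is NUP205 alone and the basket bar of 4 is NUP153 alone, while the 7 karyopherin sites of GPATCH8-ADAR come from 4 genes.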

How the data were processed

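For each fusion the authors deposited a table that gives, for every listed Ensembl transcript, the count of editing sites by region, per the file headers. The submitters' processing notes name Trimmomatic, STAR and hg19. How sites were called, with which annotation and whether strand was used is not given in the sources used here. Events of the control fusion and endogenous editing were subtracted and those found in both replicates kept, per the series' design text. Control and untransfected libraries have no values of their own here.

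Blank entries (572, GPATCH8-ADAR list) were skipped. Counts of the 5′ UTR, coding sequence, 3′ UTR and introns equalled the transcript count in all 612 and 1340 transcripts, and were summed per gene with Python 3.11.15 and pandas 2.3.3. Intervals are exact binomial (Clopper-Pearson, 95%, SciPy 1.17.1). The sums were tested on simulated data. No test between fusions was made, since each has 1 list.

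The members and lists were chosen with earlier results of these data known. Named genes were the 10 members, up to 6 edited genes of each of 10 fixed lists (most sites first) and the 5 genes nearest to NUP205 in counts; RP4-785G19.5, and list genes named as not listed, were added after values were seen. All 103 list symbols and all 10 members were current symbols in a RefSeq gene table of GRCh38.p14, used for names and gene order only. Alternatives were other ways to combine transcripts, regions and genes.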

Additional observations from a re-analysis of the deposited data

How the results depend on the processing

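Of 55 alternative values for 18 results, 52 stayed within 1.5 times the main value and 3 moved beyond it. Most of the 55 could not move. Each member had 1 listed transcript per fusion, no promoter or stop-codon site and intronic sites alone. The tally is therefore no measure of how firm the results are. Without NUP205, the GPATCH8-ADAR members had 9 sites in place of 17. With at least 2 sites required, 3 members were counted with GPATCH8-ADAR in place of 6, and 0 with ADAR-SUGP1 in place of 5. The largest count of 1 transcript, and the addition of promoter and stop-codon counts, changed no member's count, and the intronic share was 100% without each gene in turn. Restricted to transcripts listed for both fusions, NUP85 kept 1 site with each, and the other members gave no value. No paired analysis was possible because each list joins both replicates, and for the same reason no replicate could be left out. Site depth is unknown.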

Other observations

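The nuclear lamina and envelope, which adjoin the pore, gave 1 edited gene of 18. TOR1AIP2, a membrane protein of the endoplasmic reticulum and nuclear envelope that activates torsin, had 2 intronic sites on the GPATCH8-ADAR list and 1 on the ADAR-SUGP1 list, in the same transcript, ENST00000367612.3. The lamin genes LMNA, LMNB1 and LMNB2 were on neither list. By name, 2.42% (GPATCH8-ADAR) and 4.83% (ADAR-SUGP1) of RefSeq protein-coding genes were listed, so most genes of any such set would be absent. Nothing is read from these counts.

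The use of strand in assigning sites is not given. In the RefSeq gene order of GRCh38.p14, 5 of the 10 nucleoporin genes (NUP205, NUP133, NUP85, NUP43 and NUP210) overlapped no other gene. NUP153 overlapped the antisense RNA NUP153-AS1 and a pseudogene, and NUP188 overlapped SH3GLB2 and a long non-coding RNA. NUP98, NUP155 and NUP107 overlapped pseudogenes, and NUP98 also a small nucleolar RNA. The protein-coding gene SH3GLB2 was on neither list. The lists use older Ensembl names for many non-coding genes, so no match by symbol is given for the other overlapping genes. Among next neighbours, GGA3, a clathrin adaptor gene beside NUP85, was on at least 1 of the lists.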
